A study of Mus musculus with 18 samples.

Results

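The tumour necrosis factor (TNF) superfamily pairs small trimeric ligands with a family of cell-surface receptors, and its genes were followed here in microglia and macrophages of mouse brain. Members were taken by name: genes whose symbol begins with Tnfsf or Tnfrsf and a number, together with Tnf, Lta, Ltb, Fas, Fasl, Cd27, Cd40, Cd40lg, Cd70 and Ltbr. This gave 42 of the 57010 genes in the count table, made up of 17 ligands, 24 receptors and Tnfsf13os, an RNA from the strand opposite Tnfsf13. At least 1 read was counted for 40 of them, and 28 passed the filter on low counts and were tested (9 ligands, 18 receptors and Tnfsf13os).

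Most ligands are made as membrane proteins, and some, TNF among them, are cut free by proteases. Receptors with a death domain can start cell death, others bind TRAF adaptor proteins, and both kinds can switch on the transcription factor NF-kB, which in turn drives cytokine and survival genes. Microglia, the resident macrophages of the brain, and macrophages that enter from the blood are known sources of TNF after brain injury.

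The study profiled RNA by bulk sequencing in brain cells from male wild-type mice that had been depleted of Ly6G-bearing cells and then selected for CD11b, a marker of microglia, macrophages and other myeloid cells. It asked how the retinoid X receptor agonist bexarotene acts on these cells in youth, in old age and after ischaemic stroke. There were 6 groups of 3 libraries, which the labels call biological replicates without saying how many animals each holds: aged mice (18 to 20 months) with stroke by middle cerebral artery occlusion, given bexarotene or vehicle; aged mice without stroke, given bexarotene or vehicle; and young mice (2 to 4 months) without stroke, given bexarotene or vehicle. Bexarotene was injected into the abdomen at 5 mg/kg, with the first dose 24 h after surgery and 1 dose on each of the next 2 days. Vehicle mice received saline holding 3% DMSO, and every sample carries the label day 3. The labels do not say whether mice without stroke had any surgery, and there was no young group with stroke.

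Libraries held 16206144 to 29359943 counts with stroke and 7582511 to 11852638 counts without it, so members of low level were read more deeply with stroke. Microglial markers were high in every library, and the summed level of the 9 listed was 17109 to 21510 CPM (counts scaled to the size of each library) in stroke libraries given bexarotene, 18597 to 19555 CPM in those given vehicle, and 37485 to 54733 CPM in all libraries without stroke. Levels of the 9 listed markers of infiltrating monocytes summed to 2466 to 4780 CPM with stroke and to 42.5 to 206 CPM without it. In 5 of the 6 groups the library numbered 1 had the highest summed level of choroid plexus markers (1737 to 3155 CPM), while among aged stroke libraries given bexarotene it was library 3 (707 CPM). Results that change when all libraries numbered 1 are left out, an alternative chosen after seeing the data, are named below.

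On a scale that divides counts by exon length (TPM, a length-scaled share of each library), the 6 highest members over the 6 group means were all receptors. Tnfrsf1b, the TNF receptor restricted mainly to immune cells, averaged 488 TPM, and Tnfrsf21, the death receptor also called DR6, averaged 359 TPM. Then came Tnfrsf1a, the widely expressed death-domain receptor for TNF, at 187 TPM, Tnfrsf13b (TACI, a receptor for BAFF and APRIL) at 129 TPM, Ltbr, the lymphotoxin beta receptor, at 78.0 TPM, and Tnfrsf11a (RANK) at 69.8 TPM. Tnf was the highest ligand in this average, at 29.8 TPM, but its level lay at 54.3 and 87.6 TPM in the stroke groups given bexarotene and vehicle and at 3.87 to 15.1 TPM in the other groups. Without stroke, Tnfsf12 (TWEAK) and, in aged mice, Tnfsf13b (BAFF) were the highest ligands on this length-scaled scale.

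**Figure D1:**
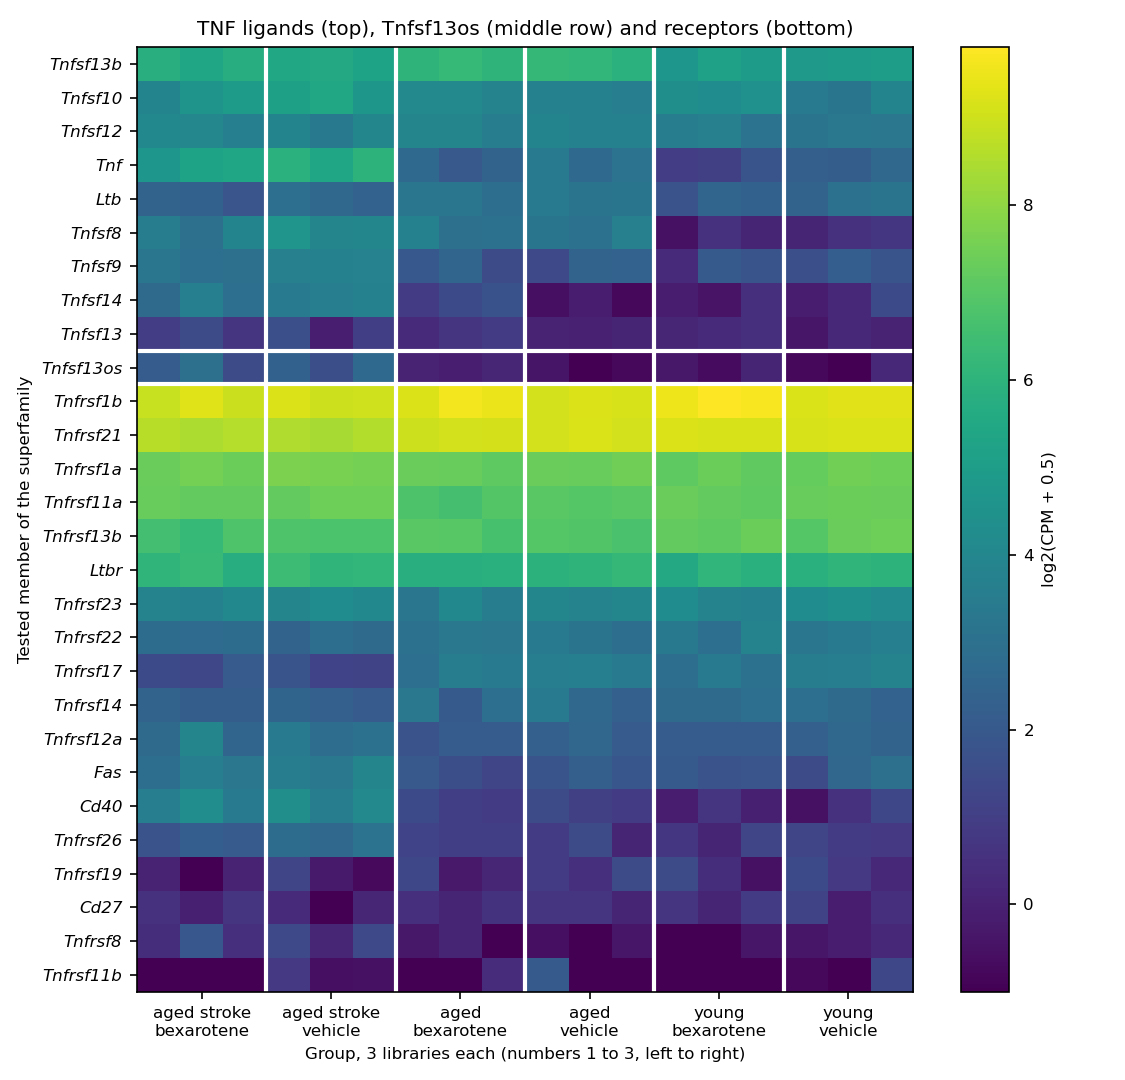
Levels of the 28 tested members in all 18 libraries, as log2(CPM + 0.5), with the groups side by side and ligands above receptors. The rows of Tnfrsf1b and Tnfrsf21 are bright in every library, while Tnf, Tnfsf14, Cd40 and Fas are brighter in the 6 stroke libraries.

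**Figure D2:**
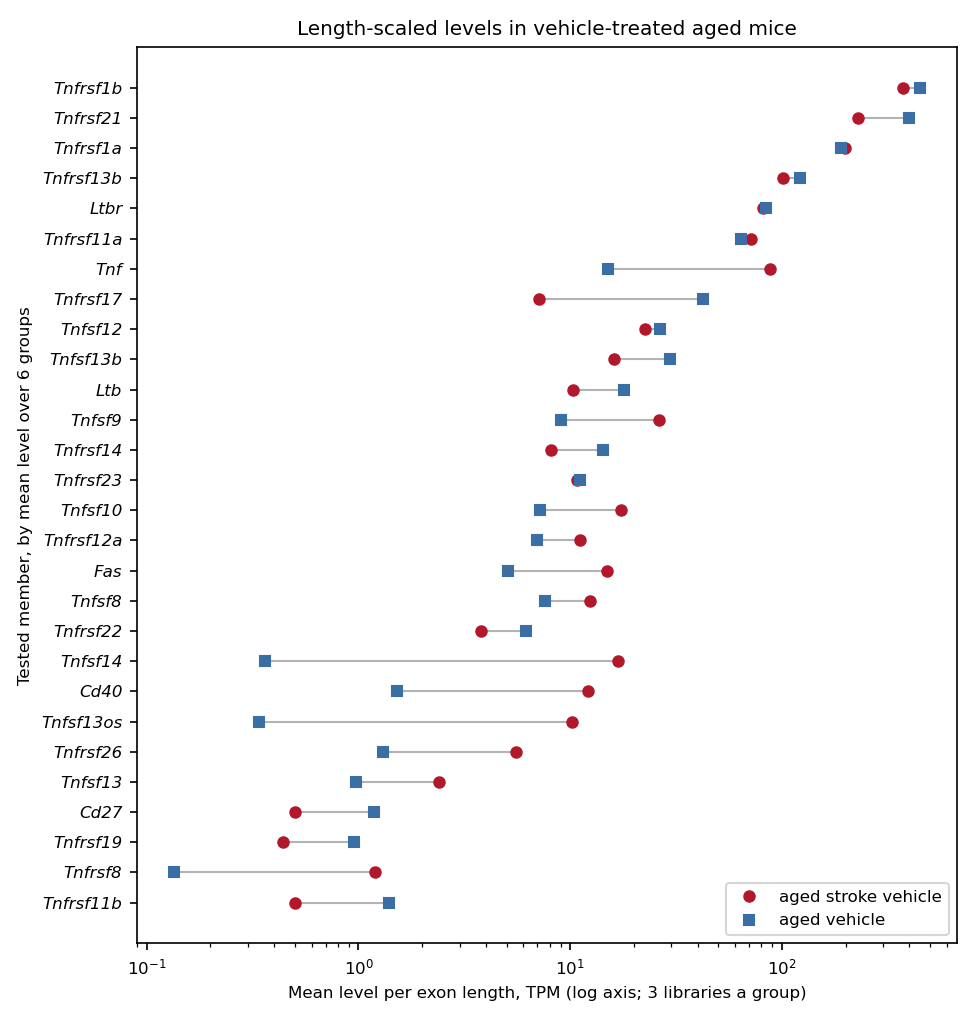
Mean length-scaled level (TPM, log axis) of each tested member in vehicle-treated aged mice with stroke (circles) and without stroke (squares), 3 libraries a group. Tnf stood at 87.6 TPM with stroke and 15.1 TPM without, and Tnfrsf17 at 7.10 TPM with stroke and 42.5 TPM without.

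Promoter sequences from RefSeq (build GRCm38.p6, 250 bases before to 50 after a gene's start) were found by symbol for 31 of the 42 members. A consensus kB site, the binding motif of NF-kB, was in the window of 3 members (Ltb, Tnfrsf8 and Tnfrsf9), which is 9.68% of the members and stands beside 5.14% of all 27025 genes in the table. A direct-repeat-4 nuclear receptor site, one of the motif types bound by retinoid X receptor pairs, was in none of the members' windows and in 0.0962% of all genes. Among motifs added after seeing the data, TATAAA was in the windows of 6 members (19.4%, beside 15.7% of all genes) and the AP-1 site TGANTCA was also in those of 6 members (19.4%, beside 8.97%). Both strands were searched in each case, overlaps between motifs were allowed, and such matches describe the letters in a window only. The windows of 4 members, each with at least 1 match, are shown 5′ to 3′ on the gene's own strand. They do not stand for the members as a group, whose shares are given above. Capitals mark TATAAA in Tnf (starting 29 bases before the gene start), the AP-1 site in Tnfsf14 (160 bases before), a kB site and an AP-1 site in Tnfrsf8 (168 and 132 bases before) and a kB site in Ltb (87 bases before).
Tnf (chr17:35201958-35202257, minus strand): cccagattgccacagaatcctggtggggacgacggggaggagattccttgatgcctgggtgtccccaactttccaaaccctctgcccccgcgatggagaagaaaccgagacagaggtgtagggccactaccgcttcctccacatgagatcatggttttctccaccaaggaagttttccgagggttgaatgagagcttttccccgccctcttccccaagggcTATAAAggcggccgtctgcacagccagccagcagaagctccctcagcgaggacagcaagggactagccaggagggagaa
Tnfsf14 (chr17:57194132-57194431, minus strand): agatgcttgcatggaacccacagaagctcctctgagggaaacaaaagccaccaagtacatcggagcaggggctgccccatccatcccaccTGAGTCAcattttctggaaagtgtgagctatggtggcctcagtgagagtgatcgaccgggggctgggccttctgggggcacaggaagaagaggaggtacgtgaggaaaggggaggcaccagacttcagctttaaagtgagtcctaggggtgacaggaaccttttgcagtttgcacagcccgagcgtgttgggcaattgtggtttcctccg
Tnfrsf8 (chr4:145315115-145315414, minus strand): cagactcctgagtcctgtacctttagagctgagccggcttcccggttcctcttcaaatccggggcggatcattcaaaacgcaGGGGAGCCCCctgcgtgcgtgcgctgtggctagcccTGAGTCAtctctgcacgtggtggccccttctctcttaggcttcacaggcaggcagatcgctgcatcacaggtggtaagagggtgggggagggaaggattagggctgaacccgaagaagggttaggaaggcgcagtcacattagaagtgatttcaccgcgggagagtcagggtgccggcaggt
Ltb (chr17:35194257-35194556, plus strand): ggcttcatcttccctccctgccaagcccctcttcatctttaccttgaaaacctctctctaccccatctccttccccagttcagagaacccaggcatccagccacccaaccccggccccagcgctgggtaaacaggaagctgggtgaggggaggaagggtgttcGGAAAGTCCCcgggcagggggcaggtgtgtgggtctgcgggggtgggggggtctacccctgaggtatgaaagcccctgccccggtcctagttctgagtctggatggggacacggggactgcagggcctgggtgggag

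More members were called with stroke than with age or bexarotene, and the ligands Tnf and Tnfsf14 and the receptors Cd40 and Fas rose in both drug arms. In aged mice given bexarotene 10 of the 28 tested members rose and 5 fell with stroke, and in aged mice given vehicle 14 rose and 3 fell (edgeR's quasi-likelihood test, adjusted p under 0.05). Over all 15528 genes tested, 26.8% rose and 21.2% fell in bexarotene mice, and 27.2% rose and 21.1% fell in vehicle mice, so a call alone says little about the family. Stroke libraries did not overlap those without stroke for 56.3% of all genes in bexarotene mice and 56.1% in vehicle mice. Of the members, 10 were higher and 5 lower without overlap in bexarotene mice, and 13 higher and 5 lower in vehicle mice. Lack of overlap alone therefore says little as well. The median log2 fold change of the members was 0.23 in bexarotene mice and 0.20 in vehicle mice, beside 0.00 and 0.02 over all genes. These comparisons share no libraries, and 13 members were called in the same direction in both, which is 86.7% of those called in bexarotene mice and 76.5% of those called in vehicle mice. Over all genes tested 6180 were called in the same direction in both, 83.0% of the calls in bexarotene mice and 82.4% of those in vehicle mice, so the members' shares lie near the background. Of the tested members, 4 passed the filter only through the stroke libraries (Tnfrsf11b, Tnfrsf8, Tnfsf13 and Tnfsf13os), and the counts above include them. Among the other 24, 8 rose and 5 fell in bexarotene mice, 11 rose and 3 fell in vehicle mice, and 11 were called in the same direction in both. Because RNA was taken from mixed cells, a cell type that became rarer or more common and a change of RNA per cell cannot be told apart here.

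Other cell markers moved with stroke too. All 9 monocyte markers were called higher in both drug arms, and 7 of 9 microglial markers were called lower in both. Among 12 genes known to respond to tissue dissociation, 5 rose and 1 fell in bexarotene mice, with summed levels of 4531 to 8265 CPM in stroke libraries against 2752 to 3746 CPM in those without; 9 rose and 2 fell in vehicle mice, at 5869 to 8738 CPM with stroke against 2052 to 3621 CPM without. Neutrophil markers, a class the sort was meant to remove, had 0 of 9 higher and 1 lower in bexarotene mice, where their summed levels overlapped (856 to 3327 CPM with stroke against 1012 to 1953 CPM without). In vehicle mice 4 of 9 rose, and the sums of 967 to 2323 CPM with stroke and 663 to 917 CPM without did not overlap. Of 6 tested dendritic-cell markers 3 rose and 1 fell in each arm, while the summed level of the list was lower with stroke, at 123 to 201 CPM against 385 to 511 CPM without in bexarotene mice and 176 to 198 CPM against 493 to 558 CPM without in vehicle mice. Markers of border-associated macrophages summed to 708 to 1007 CPM with stroke against 581 to 665 CPM without in bexarotene mice, where 3 of 8 rose and 4 fell, and to 1085 to 1147 CPM with stroke against 526 to 680 CPM without in vehicle mice, where 3 rose and 0 fell. T-cell and natural killer markers summed to 11.8 to 12.5 CPM with stroke against 6.59 to 8.54 CPM without in bexarotene mice, where none of 9 tested was called, and to 10.6 to 22.2 CPM with stroke against 6.34 to 9.69 CPM without in vehicle mice, where 4 rose. In all, the sums of 7 of 14 lists in bexarotene mice and 9 of 14 in vehicle mice did not overlap. Single genes did not overlap in 56.3% and 56.1% of cases in these arms, so the counts of lists alone say little. The lists not yet named among these were endothelial cells in bexarotene mice (20.5 to 24.1 CPM with stroke against 27.1 to 34.3 CPM without) and, in vehicle mice, mural cells and fibroblasts (6.20 to 34.9 CPM with stroke against 1.25 to 5.87 CPM without) and neurons (0.487 to 0.84 CPM with stroke against 1.06 to 2.15 CPM without). The part of these cell types and of dissociation in the changes given below was not tested.

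**Figure D3:**
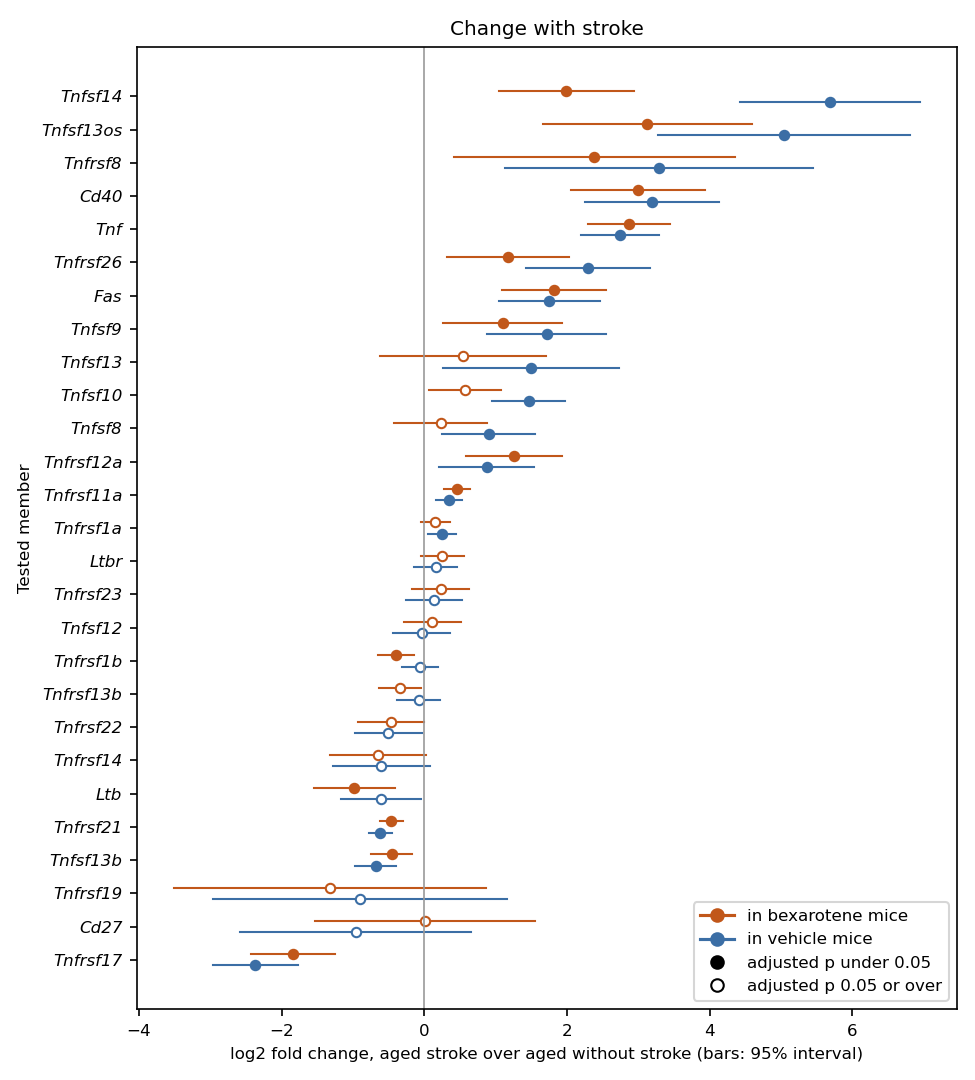
Log2 fold change with stroke (aged stroke over aged without stroke) for the tested members in bexarotene mice and vehicle mice, with 95% intervals; filled points passed an adjusted p of 0.05. Tnfrsf11b, listed at 0 in every stroke library given bexarotene, is left out. Tnf lies near 2.87 and 2.74 in the 2 arms, and Tnfrsf17 near -1.84 and -2.37.

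Among the ligands, Tnf, the cytokine that gives the family its name, had 25.4, 38.7 and 40.9 CPM in stroke libraries given bexarotene, against 5.97, 3.57 and 4.87 CPM in aged libraries given bexarotene. With vehicle, the stroke libraries had 59.8, 42.3 and 63.9 CPM, against 10.5, 6.07 and 8.15 CPM without stroke. Every stroke library lay above every library without stroke. The log2 fold change was 2.87 ± 0.27 (SE; edgeR adjusted p = 1.48e-07) in bexarotene mice and 2.74 ± 0.26 (adjusted p = 1.55e-07) in vehicle mice.

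Tnfsf14 (LIGHT, a ligand of Ltbr and Tnfrsf14) was near the limit of counting without stroke. It had 6.14, 12.2 and 7.28 CPM in stroke libraries given bexarotene, against 1.34, 2.21 and 2.84 CPM in aged libraries given bexarotene. In vehicle mice the stroke libraries had 10.9, 11.8 and 12.9 CPM, against 0.181, 0.391 and 0.0959 CPM, or 2, 4 and 1 reads, without stroke. Neither pair of groups overlapped. The log2 fold change was 1.99 ± 0.45 (SE; edgeR adjusted p = 0.00126) in bexarotene mice and 5.68 ± 0.60 (adjusted p = 4.78e-07) in vehicle mice. That difference between the arms was tested as an interaction and is given with the bexarotene results.

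Tnfsf10 (TRAIL, a ligand that can start cell death through Tnfrsf10b in mice) rose with stroke in vehicle mice, where it had 35, 43.9 and 25.7 CPM with stroke, against 13.1, 12.9 and 11.8 CPM without. Its log2 fold change there was 1.47 ± 0.24 (SE; edgeR adjusted p = 7.55e-05), with no overlap. The bexarotene stroke libraries spread more widely, at 14, 23.7 and 31.3 CPM, against 16.5, 16.3 and 13.8 CPM without stroke. Those groups overlapped, and the log2 fold change of 0.56 ± 0.24 missed the threshold (adjusted p = 0.0617); without stroke bexarotene library 1, the lowest, it was 0.82 (adjusted p = 0.00414). It also passed without all libraries numbered 1 (0.86, adjusted p = 0.0218) and with no filter on low counts (0.56, adjusted p = 0.015).

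Tnfsf9, the ligand of the costimulatory receptor Tnfrsf9, had 9.05, 7.25 and 7.37 CPM in stroke libraries given bexarotene, against 3.4, 5.27 and 2.33 CPM without stroke. The vehicle libraries had 12.6, 12.9 and 13.4 CPM with stroke, against 2.08, 4.99 and 4.8 CPM without. It rose in both arms without overlap, by 1.10 and 1.71 on the log2 scale (adjusted p = 0.0296 in bexarotene mice and 0.00157 in vehicle mice). The call in bexarotene mice was lost without aged bexarotene library 1 (adjusted p = 0.0843) or 3 (0.128) or without stroke bexarotene library 1 (0.0874). Tnfsf9 overlaps Gm11110 on the opposite strand, and the labels do not say whether counting used strand.

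Tnfsf8, the ligand of Tnfrsf8 (CD30), rose with stroke in vehicle mice, with 24.5, 14.8 and 15.1 CPM against 8.79, 7.83 and 12.5 CPM without stroke. In bexarotene mice it had 11.1, 7.52 and 14.3 CPM with stroke, against 12.9, 7.48 and 7.91 CPM without, and the groups overlapped. The log2 fold changes were 0.23 (adjusted p = 0.571) in bexarotene mice and 0.90 (adjusted p = 0.0222) in vehicle mice. The vehicle call was lost without stroke vehicle library 1, the highest (adjusted p = 0.15), without aged vehicle library 1 (0.0788) or 2 (0.1), and without all libraries numbered 1, where the log2 fold change was 0.52 (0.215).

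Tnfsf13b (BAFF, a survival factor of B cells) had 55.3, 41.1 and 52.6 CPM in stroke libraries given bexarotene, against 64.1, 76.3 and 64.6 CPM without stroke. Under vehicle it had 42.7, 45.9 and 38.4 CPM with stroke, against 73.5, 70.7 and 59.8 CPM without. It fell without overlap in both arms, with a log2 fold change of -0.46 ± 0.14 (SE; edgeR adjusted p = 0.0106) in bexarotene mice and -0.68 ± 0.14 (adjusted p = 0.000517) in vehicle mice. Its call in bexarotene mice was lost without library 2 of either bexarotene group (adjusted p = 0.0555 without the aged library and 0.0699 without the stroke library). Ltb (lymphotoxin beta, a partner of lymphotoxin alpha at Ltbr) had 4.89, 4.68 and 3.06 CPM with stroke under bexarotene, against 9.06, 8.92 and 7 CPM without stroke. In vehicle mice it had 7.32, 5.79 and 4.73 CPM with stroke, against 10.1, 8.41 and 8.73 CPM without. It was lower with stroke in every library, and fell by 0.98 on the log2 scale in bexarotene mice (adjusted p = 0.00574). In vehicle mice the value of -0.61 missed the threshold (adjusted p = 0.0661), and passed it without stroke vehicle library 1 (0.0377). The vehicle value also passed with limma voom (adjusted p = 0.0368) and, in edgeR, with unscaled library totals (0.0451). Tnfsf12, ligand of Tnfrsf12a, had 9.81 to 15.8 CPM in the 6 stroke libraries and 11.1 to 14.8 CPM in the 6 aged libraries without stroke. The 95% interval of its log2 fold change was -0.29 to 0.51 in bexarotene mice and -0.44 to 0.36 in vehicle mice.

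Tnfsf13 (APRIL) and Tnfsf13os share bases on opposite strands, and both overlap the read-through gene Tnfsfm13, so reads could be split among them. Both passed the filter only through the stroke libraries, so the p-values given here are no support for a rise with stroke. Tnfsf13 had 42, 34 and 23 reads in stroke libraries given bexarotene, against 7, 13 and 14 reads without stroke, and 53, 7 and 29 reads in stroke libraries given vehicle, against 6, 5 and 6 reads without. This is 1.46, 2.24 and 1.07 CPM with stroke and 0.721, 1.1 and 1.42 CPM without in bexarotene mice, and 2.6, 0.426 and 1.52 CPM with stroke and 0.543, 0.489 and 0.576 CPM without in vehicle mice. Its groups overlapped in both arms, and it was called in vehicle mice (log2 fold change 1.49, adjusted p = 0.0439). That call was lost when any of the 6 libraries but stroke vehicle library 2 was left out (adjusted p 0.0829 to 0.297), and without all libraries numbered 1 (0.411). It was also lost with DESeq2 (0.0575), limma voom (0.176), no filter (0.113) and the replicate block (0.0565). Tnfsf13os had 3.95, 7.45 and 2.32 CPM in stroke libraries given bexarotene, against 0.515, 0.425 and 0.608 CPM without stroke. With vehicle it had 4.67, 2.5 and 6.04 CPM in stroke libraries, against 0.272, 0 and 0.0959 CPM without. The groups did not overlap, and the log2 fold change was 3.12 ± 0.70 (SE; edgeR adjusted p = 0.00116) in bexarotene mice and 5.03 ± 0.84 (adjusted p = 7.58e-05) in vehicle mice, the last against only 3, 0 and 1 reads.

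Of the receptors, Cd40, which activates macrophages when bound by its ligand on T cells, had 11.8, 19.1 and 10 CPM in stroke libraries given bexarotene, against 2.16, 1.53 and 1.42 CPM without stroke. The vehicle libraries had 19.6, 11.3 and 16.7 CPM with stroke, against 2.26, 1.57 and 1.34 CPM without. Every stroke library lay above every library without stroke. Cd40 rose by 2.99 ± 0.45 on the log2 scale (SE; edgeR adjusted p = 2.49e-05) in bexarotene mice and by 3.19 ± 0.45 (adjusted p = 1.23e-05) in vehicle mice, while its ligand Cd40lg was at 0 reads in all 18 libraries.

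Fas, the death receptor for Fas ligand, had 6.97, 12 and 9.22 CPM in stroke libraries given bexarotene, against 3.5, 2.55 and 1.93 CPM without stroke. Under vehicle it had 11.2, 9.69 and 14.8 CPM with stroke, against 2.99, 4.4 and 3.17 CPM without. Both arms separated fully. The log2 fold change was 1.81 ± 0.35 (SE; edgeR adjusted p = 0.000283) in bexarotene mice and 1.75 ± 0.34 (adjusted p = 0.000309) in vehicle mice.

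The receptors for TNF itself moved by at most 0.40 on the log2 scale. Tnfrsf1a had 160.0, 189 and 165 CPM in stroke libraries given bexarotene, against 164, 158 and 142 CPM without stroke. In vehicle mice it had 204, 197 and 185 CPM with stroke, against 162, 158 and 174 CPM without. Only the vehicle groups were apart, with a rise of 0.25 on the log2 scale (adjusted p = 0.0413). That call was lost when any library but stroke vehicle library 3 was left out (adjusted p 0.0735 to 0.191), and without all libraries numbered 1 (0.281). It was also lost with DESeq2 (0.0641), RLE size factors (0.0757), no filter (0.235), unscaled library totals (0.0603) and the comparison's own groups (0.0506). In bexarotene mice the log2 fold change was 0.15 (adjusted p = 0.213). Tnfrsf1b had 479.5, 622 and 499 CPM in stroke libraries given bexarotene, against 601, 793 and 713 CPM without stroke, and fell by 0.40 on the log2 scale (adjusted p = 0.0109) although the groups overlapped. That call was lost without aged bexarotene library 2 (adjusted p = 0.0667) or stroke bexarotene library 1 (0.0546). With vehicle it had 610.3, 509 and 524 CPM with stroke, against 535, 612 and 571 CPM without (log2 fold change -0.06, adjusted p = 0.692).

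Tnfrsf11a (RANK, the receptor for RANK ligand) had 158, 148 and 148 CPM in stroke libraries given bexarotene, against 110.0, 99.6 and 120.5 CPM without stroke. The vehicle values were 148, 170.1 and 172 CPM with stroke, against 130.3, 124 and 131 CPM without. It rose without overlap in both arms, by 0.46 ± 0.09 (SE; edgeR adjusted p = 0.00027) in bexarotene mice and 0.35 ± 0.09 (adjusted p = 0.00285) in vehicle mice on the log2 scale. The vehicle call was lost with no filter on low counts (0.34, adjusted p = 0.0545). Tnfrsf12a (Fn14), the receptor for TWEAK, had 6.17, 14.7 and 5.28 CPM in stroke libraries given bexarotene, against 2.88, 3.99 and 3.95 CPM without stroke. Vehicle libraries had 10.2, 6.7 and 7.93 CPM with stroke, against 4.44, 5.38 and 3.74 CPM without. All stroke libraries were higher than those without stroke in the same arm, by 1.26 (adjusted p = 0.00354) and 0.87 (adjusted p = 0.03) on the log2 scale in bexarotene and vehicle mice. The vehicle call was lost without library 1 or 3 of either vehicle group (adjusted p 0.0523 to 0.128) and without all libraries numbered 1 (0.231).

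Tnfrsf26, a mouse member of a receptor gene cluster with Tnfrsf22 and Tnfrsf23, had 2.95, 4.15 and 3.8 CPM in stroke libraries given bexarotene, against 1.75, 1.53 and 1.52 CPM without stroke. In vehicle mice it had 6.63, 5.73 and 8.25 CPM with stroke, against 1.36, 2.25 and 0.576 CPM without. It rose in both arms without overlap, by 1.18 ± 0.41 (SE; edgeR adjusted p = 0.0234) in bexarotene mice and 2.30 ± 0.41 (adjusted p = 0.000162) in vehicle mice. In bexarotene mice the call was lost without library 2 or 3 of either bexarotene group (adjusted p 0.0538 to 0.0677) and without all libraries numbered 1 (0.0704). Its neighbours did not pass the threshold: Tnfrsf22 had log2 fold changes of -0.46 and -0.51 and Tnfrsf23 of 0.23 and 0.14 in bexarotene and vehicle mice. The 3 genes are close copies, and Tnfrsf23 and Tnfrsf26 overlap an opposite-strand RNA (E230032D23Rik), so their counts are uncertain.

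Tnfrsf8 (CD30) was counted at 24, 50 and 20 reads in stroke libraries given bexarotene, against 3, 7 and 0 reads without stroke, and at 43, 10 and 40 reads in stroke libraries given vehicle, against 2, 0 and 3 reads without. This is 0.832, 3.3 and 0.927 CPM with stroke and 0.309, 0.595 and 0 CPM without in bexarotene mice, and 2.11, 0.609 and 2.1 CPM with stroke and 0.181, 0 and 0.288 CPM without in vehicle mice. Every stroke library was higher than those without stroke in the same arm, and it passed the threshold in both, with log2 fold changes of 2.38 (adjusted p = 0.0436) and 3.28 (adjusted p = 0.0131) in bexarotene and vehicle mice. The bexarotene call was lost without aged bexarotene library 1 or 3 or stroke bexarotene library 2 (adjusted p 0.108 to 0.259), and the vehicle call without aged vehicle library 2 (0.0593). Leaving out all libraries numbered 1 ended both (0.0968 in bexarotene mice and 0.0922 in vehicle mice). The bexarotene call was also lost with limma voom (0.0813), the replicate block (0.0515), unscaled library totals (0.0516) and the comparison's own groups (0.0525). Tnfrsf8 passed the filter only through the stroke libraries, so these p-values are no support for a rise with stroke.

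Tnfrsf17 (BCMA, a receptor for APRIL and BAFF known from plasma cells) fell most among the members that fell. It had 2.18, 1.98 and 3.85 CPM in stroke libraries given bexarotene, against 7.21, 11 and 10.6 CPM without stroke. Vehicle libraries had 3.05, 1.77 and 1.84 CPM with stroke, against 12, 12 and 10.7 CPM without. The highest stroke library was below the lowest library without stroke in each arm, and the log2 fold change was -1.84 ± 0.28 (SE; edgeR adjusted p = 2.62e-05) in bexarotene mice and -2.37 ± 0.28 (adjusted p = 1.99e-06) in vehicle mice. Summed levels of the 8 listed B-cell and plasma-cell markers overlapped in both arms, at 21.6 to 27.4 CPM with stroke against 24.7 to 27.6 CPM without in bexarotene mice, and 17.4 to 24.9 CPM with stroke against 23.0 to 29.6 CPM without in vehicle mice. Of the 4 tested, 1 rose in vehicle mice and none passed in bexarotene mice, and their part in the level of Tnfrsf17 was not tested. The median log2 fold change of the 9 microglial markers with stroke was -1.22 in bexarotene mice and -1.40 in vehicle mice. Tnfrsf13b, the other receptor of that system with reads throughout, had 95.7, 75.2 and 114 CPM with stroke under bexarotene, against 132, 128 and 102 CPM without stroke, and 115, 107 and 106 CPM with stroke under vehicle, against 124, 118 and 105 CPM without. Its log2 fold change was -0.34 (95% interval -0.64 to -0.04, adjusted p = 0.0552) in bexarotene mice and -0.08 (95% interval -0.38 to 0.22, adjusted p = 0.677) in vehicle mice, and the groups overlapped. The bexarotene value passed the threshold with DESeq2 (adjusted p = 0.0392) and without library 3 of either bexarotene group (adjusted p at most 0.0247). In edgeR it also passed with RLE size factors (adjusted p = 0.0468), no filter on low counts (0.0465) and unscaled library totals (0.0256).

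Tnfrsf21, a death receptor studied mainly in neurons and T cells, had 400.0, 360.2 and 395 CPM in stroke libraries given bexarotene, against 506, 534 and 558 CPM without stroke. With vehicle it had 363, 339.8 and 374 CPM in stroke libraries, against 533, 581 and 536 CPM without. It fell without overlap, by a log2 fold change of -0.47 ± 0.08 (SE; edgeR adjusted p = 6.41e-05) in bexarotene mice and -0.62 ± 0.08 (adjusted p = 3.20e-06) in vehicle mice. Ltbr, which binds lymphotoxin and LIGHT, had 67.9, 77.3 and 53.2 CPM with stroke under bexarotene, against 54.9, 54.3 and 57.5 CPM without stroke, and 83.6, 67.3 and 70 CPM with stroke under vehicle, against 61.1, 64.8 and 72.3 CPM without. Its groups overlapped, with 95% intervals of the log2 fold change from -0.05 to 0.55 in bexarotene mice and -0.14 to 0.46 in vehicle mice; without stroke bexarotene library 3 the bexarotene value passed the threshold (0.38, adjusted p = 0.0429).

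The other tested receptors passed the threshold in no comparison of the design. Tnfrsf14 (HVEM) ranged over 3.65 to 10.1 CPM in the 18 libraries, Tnfrsf22 over 4.96 to 13.6 CPM and Tnfrsf23 over 8.96 to 21.2 CPM. Cd27, a costimulatory receptor of lymphocytes, lay at 0 to 1.81 CPM and Tnfrsf19 (TROY) at 0 to 2.36 CPM. Tnfrsf11b, the soluble decoy osteoprotegerin, was at 0 reads in 11 of the 18 libraries and reached 3.71 CPM in aged vehicle library 1, so no fold is given for it. Leaving out aged vehicle library 3 in vehicle mice and aged bexarotene library 2 in bexarotene mice brought Tnfrsf14 past the threshold with stroke (log2 fold change -0.86, adjusted p = 0.0459, and -0.96, adjusted p = 0.0151), and Tnfrsf22 passed it in vehicle mice without aged vehicle library 3 (adjusted p = 0.038) or stroke vehicle library 2 (0.0464).

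**Figure D4:**
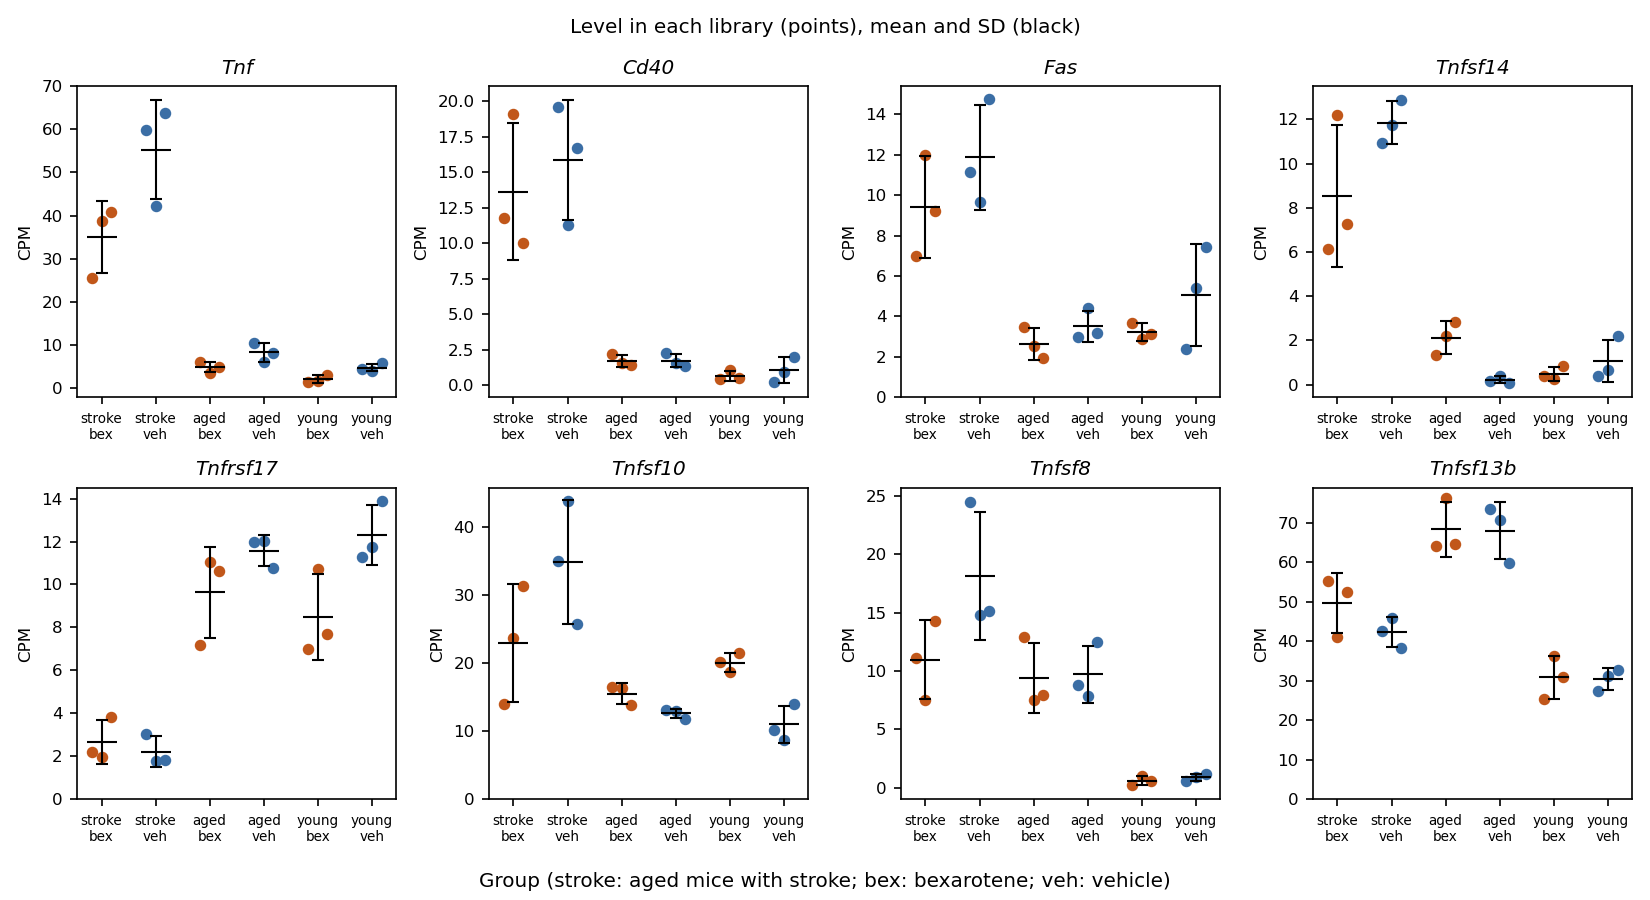
CPM of 8 members in each library (points; bexarotene in orange, vehicle in blue), with the mean and SD of each group of 3 in black. Tnf, Cd40 and Fas are higher and Tnfrsf17 is lower in the stroke libraries, while Tnfsf8 lies at 0.205 to 1.13 CPM in the 6 young libraries and at 7.48 CPM or more in all 12 aged ones.

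Downstream of the receptors, genes known to be induced through NF-kB were counted against the background given above. Of 15 tested, 9 rose and 2 fell with stroke in bexarotene mice and 10 rose and 2 fell in vehicle mice, with median log2 fold changes of 1.63 and 1.54. The 4 with the lowest p in vehicle mice rose in both arms. The chemokine Ccl2 averaged 374 CPM with stroke against 20.6 CPM without in bexarotene mice, and 503 CPM with stroke against 20.2 CPM without in vehicle mice. The chemokine Cxcl10 averaged 109 CPM with stroke against 5.97 CPM without in bexarotene mice, and 164 CPM with stroke against 5.60 CPM without in vehicle mice. Sod2, the mitochondrial superoxide dismutase, averaged 70.0 CPM with stroke against 48.4 CPM without in bexarotene mice, and 76.2 CPM with stroke against 42.2 CPM without in vehicle mice. Gadd45b, a stress response gene, averaged 13.9 CPM with stroke against 1.02 CPM without in bexarotene mice, and 19.5 CPM with stroke against 1.80 CPM without in vehicle mice. The 2 that fell, named here after their values were seen, were the cytokine Il6 (log2 fold change -2.60 in bexarotene mice and -1.62 in vehicle mice) and the adhesion molecule Vcam1 (-1.47 and -1.17). Within the NF-kB machinery, 6 of 16 genes rose and 5 fell in bexarotene mice and 6 rose and 4 fell in vehicle mice. These counts stand beside 26.8% of all genes that rose and 21.2% that fell in bexarotene mice. In vehicle mice those shares were 27.2% and 21.1%, so the counts alone say little. The subunit Nfkb1 fell by 0.99 and 0.93 on the log2 scale in bexarotene and vehicle mice, and the nuclear IkB proteins Bcl3 (2.65 and 3.14), Nfkbiz (1.58 and 1.79) and Nfkbid (0.78 and 1.15) rose. In bexarotene mice the subunit Relb rose (0.69) and the inhibitor Nfkbie fell (-0.67), while in vehicle mice they had values of 0.44 and -0.39 that missed the threshold.

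Among 26 receptor-proximal signalling genes 8 rose and 2 fell with stroke in bexarotene mice, and 6 rose and 3 fell in vehicle mice. Beside the 26.8% of all genes that rose and 21.2% that fell in bexarotene mice, and the 27.2% and 21.1% in vehicle mice, the counts of risen genes lie near the background and those of fallen genes below it. Mlkl and Ripk3, which carry out necroptosis, had log2 fold changes of 3.84 and 1.79 in bexarotene mice and 4.23 and 2.29 in vehicle mice. The adaptor Traf1 rose by 3.37 and 3.39 and Traf5 fell by 0.97 and 0.94 on the log2 scale in the bexarotene and vehicle arms, and in bexarotene mice the adaptor Traf3 (0.69) and the kinase Map3k7 (0.35) rose as well, beside 0.25 and 0.26 below the threshold in vehicle mice. Of 6 genes for the shedding of ligands and receptors, 1 rose and 2 fell in each arm. Rhbdf2, which helps ADAM17 mature in macrophages, rose by 1.73 and 1.66, its relative Rhbdf1 fell by 1.31 and 1.17, and Frmd8 fell by 0.43 and 0.27 in bexarotene and vehicle mice. Of 5 superfamily genes whose symbols fall outside the naming rule only the receptor Relt was tested, and it rose by 0.81 in bexarotene mice and 1.42 in vehicle mice (adjusted p = 0.00283 and 1.94e-05).

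With age, the ligands Tnfsf8 and Tnfsf13b rose in both drug arms. In bexarotene mice 2 members rose and 1 fell with age, beside 0.676% of all genes that rose and 0.283% that fell, and in vehicle mice 2 rose and 0 fell, beside 1.26% and 0.438%. An unadjusted p under 0.05 was found for 8 members in bexarotene mice and 7 in vehicle mice, beside 1769 and 2034 of all 15528 genes tested. Aged and young libraries did not overlap for 16.8% of all genes in bexarotene mice and 18.4% in vehicle mice. Of the members, 6 were higher and 4 lower without overlap in bexarotene mice, and 4 higher and 3 lower in vehicle mice. The members' median log2 fold change was 0.12 and -0.06, beside -0.01 and -0.01 over all genes. Tnfsf8 had 12.9, 7.48 and 7.91 CPM in aged libraries given bexarotene, against 0.205, 0.955 and 0.571 CPM in young ones, and 8.79, 7.83 and 12.5 CPM in aged libraries given vehicle, against 0.573, 0.944 and 1.13 CPM in young ones. The lowest aged library lay far above the highest young one. The log2 fold change was 4.04 ± 0.44 (SE; edgeR adjusted p = 2.83e-05) in bexarotene mice and 3.44 ± 0.41 (adjusted p = 6.33e-05) in vehicle mice.

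Tnfsf13b, which rose with age and fell with stroke, had 64.1, 76.3 and 64.6 CPM in aged libraries given bexarotene, against 25.4, 36.3 and 31 CPM in young ones. With vehicle it had 73.5, 70.7 and 59.8 CPM in aged libraries, against 27.5, 31.3 and 32.8 CPM in young ones. The groups did not overlap, and the log2 fold change was 1.15 ± 0.14 (SE; edgeR adjusted p = 0.000165) in bexarotene mice and 1.16 ± 0.14 (adjusted p = 0.000113) in vehicle mice. Both Tnfsf8 and Tnfsf13b kept their age calls under every alternative run in both arms. The authors' deposited table of aged against young vehicle mice lists the same genes, with a log2 fold change of 3.25 for Tnfsf8 and 1.13 for Tnfsf13b, and also Tnfrsf11a at -0.23.

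Tnfrsf11a had 110.0, 99.6 and 120.5 CPM in aged libraries given bexarotene, against 161, 146 and 142 CPM in young ones, and 130.3, 124 and 131 CPM in aged libraries given vehicle, against 156, 165 and 163 CPM in young ones. It was lower in all aged libraries. The log2 fold change of -0.44 ± 0.09 passed the threshold in bexarotene mice (SE; edgeR adjusted p = 0.0157), and -0.33 ± 0.09 in vehicle mice did not (adjusted p = 0.0645), although DESeq2 called it there (-0.31, adjusted p = 0.0173). The bexarotene call was lost with no filter on low counts (adjusted p = 0.118), on the groups of the comparison alone (0.0957), without young bexarotene library 1 (0.107), aged bexarotene library 1 (0.0778) or 2 (0.0918), and without all libraries numbered 1 (0.251). Summed levels of border-associated macrophage markers did not overlap between ages in either arm, at 581 to 665 CPM in aged libraries given bexarotene against 1017 to 1289 CPM in young ones, and 526 to 680 CPM in aged libraries given vehicle against 867 to 1103 CPM in young ones, and 3 of 8 fell in each arm. Other lists whose sums did not overlap were T-cell and natural killer markers in bexarotene mice (6.59 to 8.54 CPM in aged against 12.7 to 19.0 CPM in young libraries) and, in vehicle mice, microglia (39987 to 43830 CPM in aged against 44712 to 54733 CPM in young libraries) and dendritic cells (493 to 558 CPM in aged against 361 to 463 CPM in young libraries). None of these 3 lists had a gene called with age; 1 of 5 tested endothelial markers rose in vehicle mice. The part of these cell types in the age results was not tested.

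Tnf was higher in all aged than in all young libraries of the same arm without passing edgeR's threshold. It had 5.97, 3.57 and 4.87 CPM in aged libraries given bexarotene, against 1.44, 1.55 and 3.05 CPM in young ones (log2 fold change 1.22, adjusted p = 0.11), and 10.5, 6.07 and 8.15 CPM in aged libraries given vehicle, against 4.39, 4.05 and 5.76 CPM in young ones (0.79, adjusted p = 0.214). DESeq2 called it in bexarotene mice (adjusted p = 0.0148), and with no filter on low counts edgeR called it in bexarotene mice (adjusted p = 0.000131) and in vehicle mice (0.0142). Tnfsf12 and Tnfrsf13b also separated by age in vehicle mice without passing, at 14.2, 13 and 13.1 CPM in aged against 8.49, 9.44 and 9.25 CPM in young libraries (log2 fold change 0.57, adjusted p = 0.185), and at 124, 118 and 105 CPM in aged against 125, 159.5 and 170.1 CPM in young libraries (-0.39, adjusted p = 0.214). Tnfrsf23 separated there without passing as well, at 13.7 to 15.3 CPM in aged against 18.2 to 21.2 CPM in young libraries. Under bexarotene, Tnfsf12 had 14.6, 14.8 and 11.1 CPM in aged and 11.2, 12.5 and 8.29 CPM in young libraries. Tnfrsf13b had 132, 128 and 102 CPM in aged and 148, 139 and 166 CPM in young libraries of that arm. Tnfsf14 had a log2 fold change with age of 2.02 in bexarotene mice and -2.29 in vehicle mice (edgeR adjusted p = 0.116 and 0.112). DESeq2 called it in bexarotene mice (adjusted p = 0.0292), and edgeR with no filter called it in both arms (0.00123 and 0.00638). Its mean was 3.52 TPM in aged against 0.861 TPM in young bexarotene mice, and 0.36 TPM in aged against 1.79 TPM in young vehicle mice. From the pathway lists Csf1, the growth factor of microglia, rose with age in vehicle mice (46.6 CPM in aged against 18.2 CPM in young libraries, adjusted p = 0.0114), and none was called in bexarotene mice.

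Bexarotene moved few members past the threshold. After stroke 0 of 28 were called, beside 0.058% of all genes, in aged mice without stroke 1 was called, beside 0.258%, and in young mice 0, beside 0.509%. At an unadjusted p under 0.05 there were 4 members in each setting. They were Tnf, Tnfsf10, Tnfsf8 and Tnfrsf26 after stroke, Tnfsf14, Tnf, Tnfrsf11a and Tnfrsf1b in aged mice, and Tnf, Tnfrsf1b, Tnfsf10 and Ltb in young mice. Of all 15528 genes tested, 988 after stroke, 1012 in aged mice and 1300 in young mice had such a p. DESeq2 called 0, 1 and 1 members in these settings. The members' median log2 fold change was -0.17 after stroke, -0.05 in aged mice and -0.23 in young mice, while over all genes it lay within 0.01 of 0 in each setting.

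Tnf was lower with bexarotene in each setting. After stroke it had 25.4, 38.7 and 40.9 CPM with bexarotene, against 59.8, 42.3 and 63.9 CPM with vehicle. Aged mice without stroke had 5.97, 3.57 and 4.87 CPM with bexarotene, against 10.5, 6.07 and 8.15 CPM with vehicle, and young mice had 1.44, 1.55 and 3.05 CPM with bexarotene, against 4.39, 4.05 and 5.76 CPM with vehicle. Bexarotene and vehicle libraries did not overlap in any setting. Taking each setting alone, this held for 11.3% of all genes after stroke, 11.8% in aged mice and 13.1% in young mice. The log2 fold changes were -0.66 ± 0.23 after stroke, -0.79 ± 0.28 in aged mice and -1.22 ± 0.34 in young mice (SE), and none passed edgeR's threshold (adjusted p = 0.55, 0.551 and 0.163), although DESeq2 called the difference in young mice (adjusted p = 0.0235). With no filter on low counts edgeR called all 3 (adjusted p = 0.0213, 0.0271 and 0.00031). That setting moved the calls over all genes as well. The share of called genes that were higher was 32.0% after stroke without the filter, against 88.9% with it. In aged mice it was 69.9% against 92.5%, and in young mice 49.5% against 82.3%.

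The mean of the 3 bexarotene effects, a contrast added after these values were seen, was -0.89 ± 0.17 for Tnf (SE; 95% interval -1.24 to -0.54, edgeR adjusted p = 0.00679). Tnf was the only member called in it, beside 2.09% of all genes. The call was lost with limma voom (-0.93, adjusted p = 0.0868) and without all libraries numbered 1 (-0.75, adjusted p = 0.0793), while leaving out any 1 library kept it (adjusted p 0.0027 to 0.0214). Among the 15 NF-kB response genes of this contrast, 1 rose (Bcl2a1b, log2 fold change 0.41) and 1 fell (Gadd45b, -1.26), and the median was -0.04. Of the other lists Relt rose (0.52) and the caspase-8 inhibitor Cflar fell (-0.30), and no pathway gene was called in a separate bexarotene comparison. Summed dissociation markers were 4531 to 8265 CPM with bexarotene and 5869 to 8738 CPM with vehicle after stroke. They were 2752 to 3746 CPM with bexarotene and 2052 to 3621 CPM with vehicle in aged mice, and 2023 to 4534 CPM with bexarotene and 1875 to 3718 CPM with vehicle in young mice, with overlap in each setting; after stroke all 12 genes of the list had a negative value. Marker sums that did not overlap after stroke were those of border-associated macrophages (708 to 1007 CPM with bexarotene against 1085 to 1147 CPM with vehicle), choroid plexus (140 to 707 CPM with bexarotene against 911 to 3155 CPM with vehicle) and astrocytes (11.2 to 16.2 CPM with bexarotene against 21.7 to 41.4 CPM with vehicle). In aged mice without stroke they were those of oligodendrocytes (99.0 to 117 CPM with bexarotene against 121 to 158 CPM with vehicle), monocytes and neutrophils, and in young mice no list's sums were apart. No gene of these lists was called with bexarotene in a separate setting, and their part in the level of Tnf was not tested.

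Tnfsf14 was the member called with bexarotene in aged mice. Tnfsf14 passed the filter on low counts through the stroke libraries, and among groups without stroke only through aged bexarotene, where it was highest. It had 1.34, 2.21 and 2.84 CPM with bexarotene (13, 26 and 28 reads), against 0.181, 0.391 and 0.0959 CPM with vehicle (2, 4 and 1 reads), a log2 fold change of 3.21 ± 0.64 (SE; edgeR adjusted p = 0.0462) without overlap. The vehicle libraries here also serve the stroke and age comparisons of vehicle mice. The call was lost with limma voom (adjusted p = 0.564), and on leaving out any library but aged bexarotene library 1 (aged vehicle library 1 0.182, 2 0.136 and 3 0.275; aged bexarotene library 2 0.121 and 3 0.236). After stroke Tnfsf14 had 6.14, 12.2 and 7.28 CPM with bexarotene, against 10.9, 11.8 and 12.9 CPM with vehicle (-0.48, adjusted p = 0.955), and young mice had 0.411, 0.239 and 0.857 CPM with bexarotene, against 0.382, 0.674 and 2.18 CPM with vehicle (-1.10, adjusted p = 0.686).

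The bexarotene effect on Tnfsf14 differed by -3.69 ± 0.77 on the log2 scale for stroke minus no stroke in aged mice, and by 4.31 ± 0.90 for aged minus young mice without stroke (SE). Neither interaction passed edgeR's adjusted threshold (adjusted p = 0.537 and 1.00, unadjusted p = 0.000138 and 0.000133), and 0 of all genes did. An unadjusted p under 0.05 was found for 2 and 1 members, beside 638 and 456 of all 15528 genes tested. DESeq2 called both interactions of Tnfsf14 (adjusted p = 0.0377 and 0.0206). The summed monocyte markers in aged mice without stroke were 120 to 185 CPM with bexarotene and 59.0 to 100.4 CPM with vehicle, and the neutrophil markers 1012 to 1953 CPM with bexarotene and 663 to 917 CPM with vehicle. Neither list had a gene called between these groups, the sums did not overlap, and their part in the level of Tnfsf14 was not tested. The authors' deposited table of bexarotene against vehicle in aged mice lists Tnfsf14 with a log2 fold change of 0.47 (adjusted p = 0.0352), and how its folds were made is not stated.

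Tnfsf10 and Tnfrsf1b were higher in every young library given bexarotene than in any given vehicle. Tnfsf10 had 20.1, 18.7 and 21.4 CPM with bexarotene, against 10.2, 8.77 and 14 CPM with vehicle (0.86 ± 0.25, adjusted p = 0.2), and Tnfrsf1b had 734, 899 and 846 CPM with bexarotene, against 583, 635 and 647 CPM with vehicle (0.41 ± 0.12, adjusted p = 0.199). Neither passed the threshold here, while the authors' deposited table for young mice lists both, at 0.47 and 0.33. The sign of the Tnfsf10 value differed between settings. The log2 fold change was -0.60 after stroke, 0.30 in aged mice and 0.86 in young mice, and the difference between stroke and no stroke was -0.90 ± 0.34 (SE; edgeR unadjusted p = 0.0163, adjusted p = 1.00). The authors' deposited table for bexarotene after stroke lists no member.

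For other members, the 95% interval of the bexarotene effect on the log2 scale after stroke was -1.02 to 0.58 for Cd40, -0.45 to 0.14 for Ltbr, -0.39 to 0.01 for Tnfrsf1a, -0.57 to 0.70 for Tnfrsf12a and -0.06 to 0.52 for Tnfsf13b. In young mice Cd40 had 0.411, 1.07 and 0.476 CPM with bexarotene, against 0.191, 0.944 and 2.01 CPM with vehicle, and Fas had 3.7, 2.86 and 3.14 CPM with bexarotene, against 2.39, 5.39 and 7.42 CPM with vehicle. Ltbr had 45.8, 68.4 and 57.6 CPM with bexarotene, against 57.3, 67.8 and 62.3 CPM with vehicle, and Tnfrsf1a had 138, 164 and 145 CPM with bexarotene, against 153, 182 and 169.5 CPM with vehicle. All of these young groups overlapped.

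**Figure D5:**
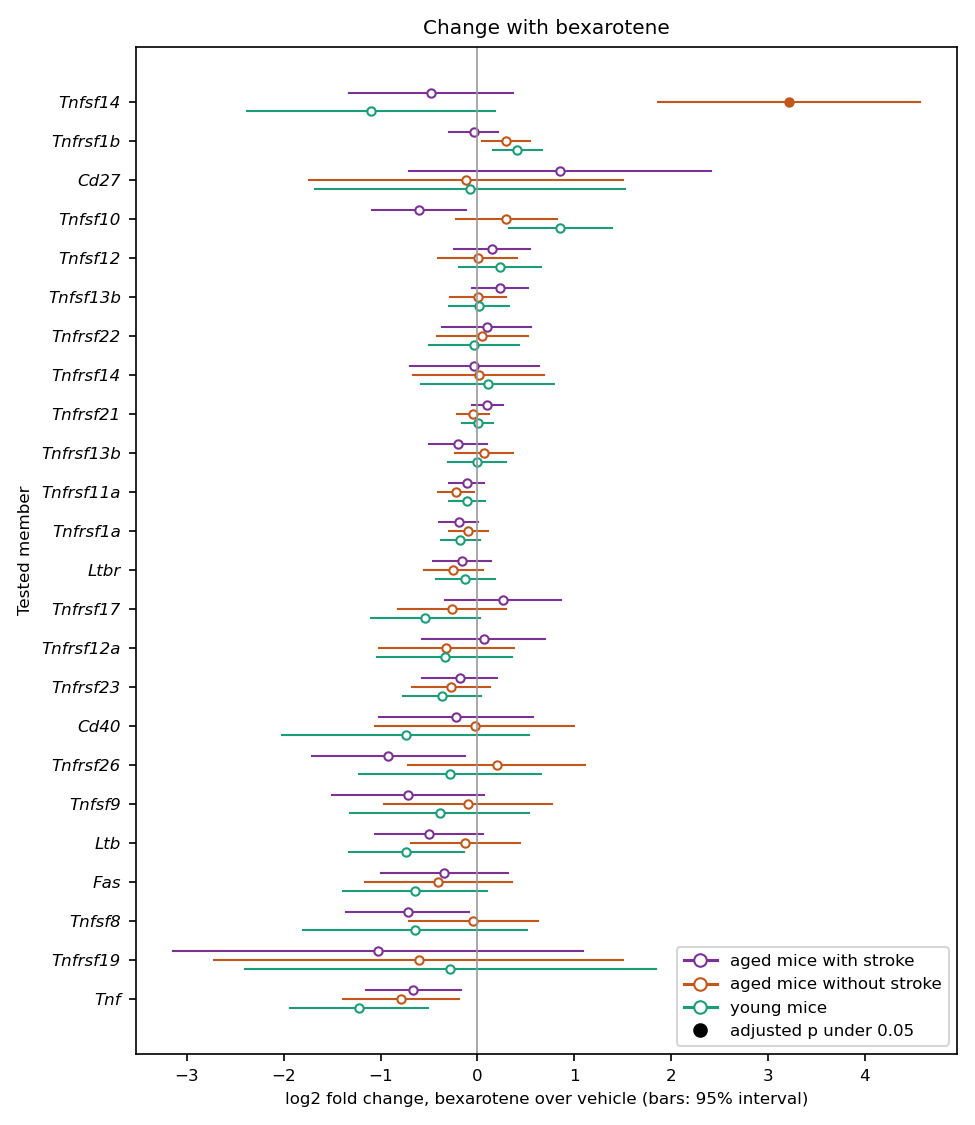
Log2 fold change with bexarotene (bexarotene over vehicle) in aged mice with stroke, aged mice without stroke and young mice, with 95% intervals, for the 24 tested members that also passed the filter without the stroke libraries. Tnf lies below 0 in all 3 settings, at -0.66, -0.79 and -1.22, and the filled point is Tnfsf14 in aged mice.

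For the remaining members called with stroke, the young levels are still to be given. Among the receptors, Tnfrsf17 had 6.98, 10.7 and 7.71 CPM with bexarotene and 11.3, 11.7 and 13.9 CPM with vehicle in young mice, groups that did not overlap (log2 fold change -0.54, adjusted p = 0.628). Tnfrsf21 had 609, 575 and 574 CPM with bexarotene and 573, 592 and 589 CPM with vehicle, and Tnfrsf12a had 3.9, 3.94 and 3.9 CPM with bexarotene and 4.48, 5.53 and 4.89 CPM with vehicle. The young levels of both lay near those of aged mice without stroke, and neither was called for age or bexarotene. For Tnfrsf12a the young bexarotene and vehicle libraries did not overlap. Tnfrsf26 had 1.13, 0.597 and 1.9 CPM with bexarotene and 1.91, 1.35 and 1.22 CPM with vehicle. Tnfrsf8 had 0, 0 and 0.286 CPM with bexarotene and 0.286, 0.405 and 0.698 CPM with vehicle. Among the ligands, Ltb had 2.88, 5.25 and 4.67 CPM with bexarotene and 4.87, 7.96 and 8.46 CPM with vehicle in young mice (log2 fold change -0.73, adjusted p = 0.421), and was higher in all aged than in all young libraries given bexarotene (0.97, adjusted p = 0.132). Tnfsf9 had 0.719, 3.7 and 3.05 CPM with bexarotene and 2.58, 4.18 and 3.05 CPM with vehicle. Both Tnfsf13 and Tnfsf13os stayed under 1 CPM in the young libraries. Tnfsf13 had 0.616, 0.716 and 0.857 CPM with bexarotene and 0.286, 0.674 and 0.524 CPM with vehicle. Tnfsf13os had 0.308, 0.119 and 0.571 CPM with bexarotene and 0.0954, 0 and 0.698 CPM with vehicle.

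The 14 members too low to test were at 2.13 CPM or less in every library. Cd40lg and Cd70, ligands known from lymphocytes, had 0 reads in all 18, where 3 reads correspond to 0.396 CPM in the shallowest library. Lta (lymphotoxin alpha) had reads in 3 libraries, all of them stroke libraries given bexarotene, at 0.0347, 0.528 and 0.0463 CPM, and Tnfsf11 (RANK ligand) and Tnfsf15 had reads in 1 library each. Tnfsf4 (OX40 ligand) was counted in stroke libraries alone, at 11, 5 and 0 reads with bexarotene and 4, 0 and 12 reads with vehicle. Tnfrsf10b, the mouse receptor for TRAIL, had 0.381, 0.528 and 0.973 CPM in stroke libraries given bexarotene, against 0.103, 0.0849 and 0.203 CPM without stroke, and 1.18, 0.853 and 0.735 CPM in stroke libraries given vehicle, against 0.453, 0 and 0.192 CPM without. Tnfrsf18 (GITR) reached 1.53 CPM, Tnfrsf4 (OX40) 1.10 CPM, Tnfrsf9 0.998 CPM, Fasl 0.683 CPM, Tnfrsf25 0.480 CPM and Tnfrsf13c (the BAFF receptor) 0.425 CPM. Tnfsf18, the ligand of Tnfrsf18, reached the 2.13 CPM in aged bexarotene library 3.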

How the data were processed

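Gene counts, 1 per gene and library, were deposited by the authors for all 18 libraries, and the values are raw whole-number counts. Per the submitters' processing notes, reads were trimmed with Trimmomatic 0.40 and aligned with STAR 2.7.10a to GRCm39, with GATK and R 4.4.2 also named; per the labels' protocols, libraries came from the SMART-Seq V4 PLUS kit. No counting tool or strand setting is given there. The authors also deposited tables of bexarotene and age comparisons holding a mean signal over libraries, log2 fold changes and p-values, with and without adjustment; these were used only where named.

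Gene identifiers were matched to GENCODE M21 symbols (52033 of 57010 named; unnamed genes hold 0.326% of counts). Members, gene lists and alternatives were chosen with earlier results of these data known. edgeR 4.0.16 in R 4.3.3 fitted its quasi-likelihood model to all 18 libraries at once, after filterByExpr by group and TMM scaling, and p-values were adjusted by the Benjamini-Hochberg method over all 15528 genes tested; called means an adjusted p under 0.05, and rose and fell are used of calls only, while intervals are 95% intervals from the same fit. CPM use TMM-scaled totals, and TPM use merged exon lengths. The model was tested on simulated data. Every library's values are given for members called in any of the 9 comparisons of the design and for 12 fixed members, with full statistics for the 12 with the lowest p. Alternatives were DESeq2 1.42.0, limma 3.58.1 (voom), RLE size factors, no filter, a replicate block, each comparison's own groups, each library left out, unscaled library totals, and all libraries numbered 1 left out. No libraries were duplicates (chi-square over its degrees of freedom was at least 5.85 for every pair of a group).

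Replicate numbers, from the labels' titles, paired the libraries of the age comparison in bexarotene mice (same-number correlations 0.109 to 0.30) and of bexarotene in young mice (0.14 to 0.276), by the rule that every pair exceed 0.1; the replicate block changed no member count in either. P-values rest on the spread between libraries within groups of 3, with an estimate shared by all 6 groups. The floor of 3 counts (0.396 CPM in the shallowest library) covers counting error only.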

Additional observations from a re-analysis of the deposited data

Results flagged for a closer look

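The bexarotene effect on Tnfsf14 stood out because it differed between settings by DESeq2's test of the difference. It was -3.69 on edgeR's log2 scale for stroke minus no stroke (DESeq2 -3.74, adjusted p = 0.0377) and 4.31 for aged minus young (DESeq2 4.38, adjusted p = 0.0206). edgeR's quasi-likelihood test of the same differences gave adjusted p of 0.537 and 1.00. Among groups without stroke, Tnfsf14 passed the filter on low counts only through aged bexarotene, a group used in both differences. Groups of 3 libraries were not screened for outlying values.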

How the results depend on the processing

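In the stroke comparisons the number of members called was 12 to 16 in bexarotene mice and 14 to 18 in vehicle mice when 1 library was left out, beside 15 and 17, and 14 and 12 without all libraries numbered 1. With age it was 2 to 3 in bexarotene mice and 2 in vehicle mice, and the bexarotene comparison in aged mice gave 0 to 1 (0 on leaving out any library but aged bexarotene library 1). With no filter on low counts, edgeR called 4 members with age in vehicle mice, 5 with age in bexarotene mice, 3 with bexarotene in young mice, 2 in aged mice, 2 after stroke, 1 for each difference between bexarotene effects and 2 for the mean bexarotene effect. Calls over all genes moved without the filter too. Some genes then passed for each difference between bexarotene effects, where 0 passed with the filter. DESeq2 called 5 members with age in bexarotene mice, 1 with bexarotene in young mice and 1 for each difference between bexarotene effects. The bexarotene comparison in aged mice called 0 members with limma voom, with RLE size factors, on its own groups and without all libraries numbered 1; the mean bexarotene effect called 0 with limma voom and without all libraries numbered 1. The cause of these moves was not tested. No direction of a called member reversed in any setting run.

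With the replicate block the members called were 14 with stroke in bexarotene mice (Tnfrsf8 lost, adjusted p = 0.0515) and 16 in vehicle mice (Tnfsf13 lost, 0.0565); it changed no other call. In those comparisons the same-number correlations were 0.0299 to 0.129 and 0.0349 to 0.213, with 6 and 3 of 6 libraries correlating best with their own number. At these depths, members under about 1 CPM could not be tested or rest on few reads.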
